A study of Mus musculus with 15 samples.

Results

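The transcripts of 6 liver cytochrome P450 genes, Cyp2d9, Cyp2d10, Cyp2d22, Cyp2d26, Cyp2f2 and Cyp2j5, were followed across 15 mouse livers. They were taken by gene symbol from a deposited table of 18510 rows, and all 6 were found once. All 6 were also among the 10959 rows that passed a floor of 1 FPKM in 5 or more libraries and were tested. The study measured liver RNA by sequencing in wild-type (WT) mice in 3 groups of 5. The Alc UA mice were fed alcohol and given UA (the labels leave this abbreviation unexplained), the Alc mice received the alcohol diet alone, and the Ctrl mice received a control diet. Strain, sex, age, the dose of alcohol or UA, the length of feeding and the hour of collection were not given in the sources used here.

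Cytochromes P450 are heme-containing monooxygenases that, in the liver, sit mainly in the membrane of the endoplasmic reticulum and take electrons from the reductase encoded by Por. They oxidise drugs, pollutants, steroids, bile acids and fatty acids, and a hepatocyte holds many of them at once. The CYP2D subfamily is best known from the human drug-metabolising enzyme CYP2D6; in the mouse it has expanded into a cluster of related genes. Cyp2d9 encodes a steroid hydroxylase that is higher in male than in female mouse liver and depends on the pulses of growth hormone, and Cyp2d22 is usually treated as the mouse counterpart of CYP2D6. Cyp2f2 bioactivates naphthalene and similar compounds in club cells of the lung, and in the liver it marks periportal hepatocytes. Cyp2j5 encodes an epoxygenase of arachidonic acid found in kidney and liver. For Cyp2d10 and Cyp2d26 no specific substrate is stated here.

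In the GENCODE M21 annotation of GRCm38 the 4 CYP2D genes lie on chromosome 15, Cyp2f2 on chromosome 7 and Cyp2j5 on chromosome 4, with 9 or 10 exons in the longest coding transcript. The build to which the authors aligned was not given in the sources used here. The 250 bases before the start of transcription are shown for 3 of the CYP2D genes, because Cyp2d9 and Cyp2d10 are near-copies, of which Cyp2d9 passed a test between groups and Cyp2d10 passed none, while Cyp2d26 is a more distant relative. They come from RefSeq on GRCm38.p6, which held 5 of the 6 genes, and they lie at chr15:82452127-82452376 (plus strand), chr15:82407195-82407444 (minus strand) and chr15:82794246-82794495 (minus strand). Capitals mark matches to a direct repeat of AGGNCA, 2 copies with 1 base (N) between them (DR1, the kind of element bound by HNF4A and other nuclear receptors), and to the TATA-box letters TATAAG.
Cyp2d9: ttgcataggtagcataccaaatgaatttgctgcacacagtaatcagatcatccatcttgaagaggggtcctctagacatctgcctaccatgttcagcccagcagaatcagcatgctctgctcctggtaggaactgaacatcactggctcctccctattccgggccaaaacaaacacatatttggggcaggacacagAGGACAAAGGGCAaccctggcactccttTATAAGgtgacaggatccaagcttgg
Cyp2d10: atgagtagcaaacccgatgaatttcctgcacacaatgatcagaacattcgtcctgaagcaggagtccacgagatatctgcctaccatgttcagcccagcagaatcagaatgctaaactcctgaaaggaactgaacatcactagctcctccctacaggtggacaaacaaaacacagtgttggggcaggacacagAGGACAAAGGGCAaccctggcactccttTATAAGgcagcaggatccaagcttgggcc
Cyp2d26: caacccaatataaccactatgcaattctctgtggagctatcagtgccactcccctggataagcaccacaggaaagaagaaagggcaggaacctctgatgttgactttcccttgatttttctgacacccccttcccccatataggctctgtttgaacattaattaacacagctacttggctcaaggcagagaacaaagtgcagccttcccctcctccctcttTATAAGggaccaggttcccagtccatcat

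The Cyp2d9 and Cyp2d10 stretches were identical at 209 of 246 aligned bases (85%), against 141 of 219 (64.4%) for Cyp2d9 and Cyp2d26. Both held the same DR1 match, beginning 54 bases before the start in Cyp2d9 and 57 bases before it in Cyp2d10. Of 32851 RefSeq promoter stretches of 250 bases, 0.338% held that motif on either strand. Because the Cyp2d9 and Cyp2d10 stretches are near-copies, their matches are not separate finds. The share is given as a description with no test. The TATA letters began 26 bases before the start in Cyp2d9 and 29 before it in both Cyp2d10 and Cyp2d26, and 6.65% of all stretches held them. The Cyp2j5 stretch held them 126 bases before the start, and the Cyp2f2 stretch had no match to either motif. None of the 5 stretches matched the STAT-type letters TTCNNNGAA (7.02% of all stretches), the D-box TTANGTAA (2.06%), the C/EBP letters TTGCNNCAA (1.74%) or the E-box CACGTG (6.02%), on either strand. The DR1 and TATA matches did not overlap. A match describes letters in a window and not a site that was shown to be bound.

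The likeness of the genes also bears on how their reads could be assigned. Along the longest coding transcripts, Cyp2d9 and Cyp2d10 were identical at 91.6% of aligned bases, Cyp2d10 and the weakly listed Cyp2d11 at 94.2%, and Cyp2d22 and Cyp2d26 at 76.9%. Of all stretches of 100 bases, 9.86% of those in Cyp2d9 and 14.8% of those in Cyp2d10 occurred letter for letter in a transcript of another gene. The share was 0.225% for Cyp2d22, 0.375% for Cyp2d26 and 0% for Cyp2f2 and Cyp2j5. With stretches of 50 bases the shares were 29% for Cyp2d9, 40.5% for Cyp2d10, 10.5% for Cyp2d26 and 6.14% for Cyp2d22. They were 0.174% for Cyp2j5 and 0% for Cyp2f2. Cyp2d22 and Cyp2d26 each shared most with the other. At 100 bases Cyp2d10 shared most with Cyp2d11 (165 stretches) and Cyp2d9 with Cyp2d10 (65). At 50 bases Cyp2d9 shared most with Cyp2d12 (178). The length of the reads and the treatment of reads that fit several genes were not given in the sources used here. The levels of Cyp2d9 and Cyp2d10 are therefore less certain than those of the other 4 genes.

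Levels are given as FPKM, a fragment count scaled for transcript length and library depth, which allows genes to be compared per length. Library sums ranged from 551153 to 668832 FPKM and the number of fragments behind them is unknown. On the first principal component Ctrl 5, at -6.04, stood between the other controls (-48.4 to -30.2) and the 10 alcohol-fed livers (2.47 to 28.4). Each log2 fold change is a limma estimate on log2(FPKM + 1) with its SE, with Benjamini-Hochberg adjustment over all 10959 genes; at the levels of these genes the added 1 matters little. Over all tested genes the median log2 fold change was -0.05 for Alc UA against Alc, -0.12 for Alc against Ctrl and -0.16 for Alc UA against Ctrl. Values relative to it are given for some of the differences only. The comparisons share libraries (Alc in the first pair, Ctrl in the last pair), so their values are not independent. The design text counts 5 mice a group but the labels do not tie libraries to cages or days. A p-value here weighs a group difference against the spread between these libraries and takes no account of cage or day.

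All 9 hepatocyte markers examined were present in every group, with a summed level of 36512 to 57660 FPKM in Alc UA, 54662 to 70406 in Alc and 41131 to 63588 in Ctrl. Markers of kidney tubule, another site of Cyp2j5, summed to at most 0.23 FPKM in any library. Markers of lung club cells, another site of Cyp2f2, summed to at most 0.12 FPKM, and the defining gene Scgb1a1 was listed at 0 in all libraries. Of the 9, 2 rose (Apob and Trf) and 2 fell (Apoa1 and Ttr) in Alc against Ctrl, and 1 rose and 2 fell in Alc UA against Ctrl, counts that moved with scale (3 and 0 in Alc after quantile normalization). Of 10 sinusoidal endothelial markers, 0 rose and 9 fell in Alc against Ctrl, with summed levels of 61.1 to 144 FPKM in Alc and 148 to 429 in Ctrl, and none was at 0 throughout. Of 6 erythroid markers, 5 were tested and all 5 fell, with sums of 576 to 988 FPKM in Alc and 1431 to 8801 in Ctrl. In Alc UA the endothelial sum was 67.3 to 86.3 FPKM and the erythroid sum 346 to 1033. All 3 tested T and NK cell markers and all 4 tested B and plasma cell markers also fell in Alc against Ctrl, 0 of 8 Kupffer cell and 0 of 8 stellate cell markers passed, and 1 of 4 cholangiocyte and 1 of 2 neutrophil markers fell. In Alc UA against Ctrl 1 of 8 Kupffer cell markers, Cd5l, rose, or 4 of 8 after quantile normalization, with sums of 127 to 511 FPKM in Alc UA and 41.2 to 244 in Ctrl; the highest was Alc UA 3. The part of these differences in the results for the P450 genes was not tested, and in whole liver fewer cells of a type and less RNA per cell cannot be told apart.

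Cyp2d9 was the most abundant of the 6 genes and Cyp2d22 the least. Over all 15 libraries the mean levels were 805 FPKM for Cyp2d9, 553 for Cyp2d26, 428 for Cyp2d10, 348 for Cyp2f2, 174 for Cyp2j5 and 95.6 for Cyp2d22. Within a library Cyp2d9 exceeded Cyp2d26 in 14 of 15, Cyp2d26 exceeded Cyp2d10 in 13 of 15, Cyp2d10 exceeded Cyp2f2 in 12 of 15, Cyp2f2 exceeded Cyp2j5 in 14 of 15 and Cyp2j5 exceeded Cyp2d22 in 15 of 15. The order was firm in Alc UA for Cyp2d9, Cyp2d26 and Cyp2d10, whose ranges did not overlap there. In Ctrl the ranges of Cyp2d26, Cyp2d10 and Cyp2f2 overlapped, and Cyp2d26 exceeded Cyp2d10 in 3 of 5 livers. Ranked among all rows of its library, Cyp2d9 stood between the 72nd and the 172nd place and Cyp2d22 between the 604th and the 1000th.

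**Figure D1:**
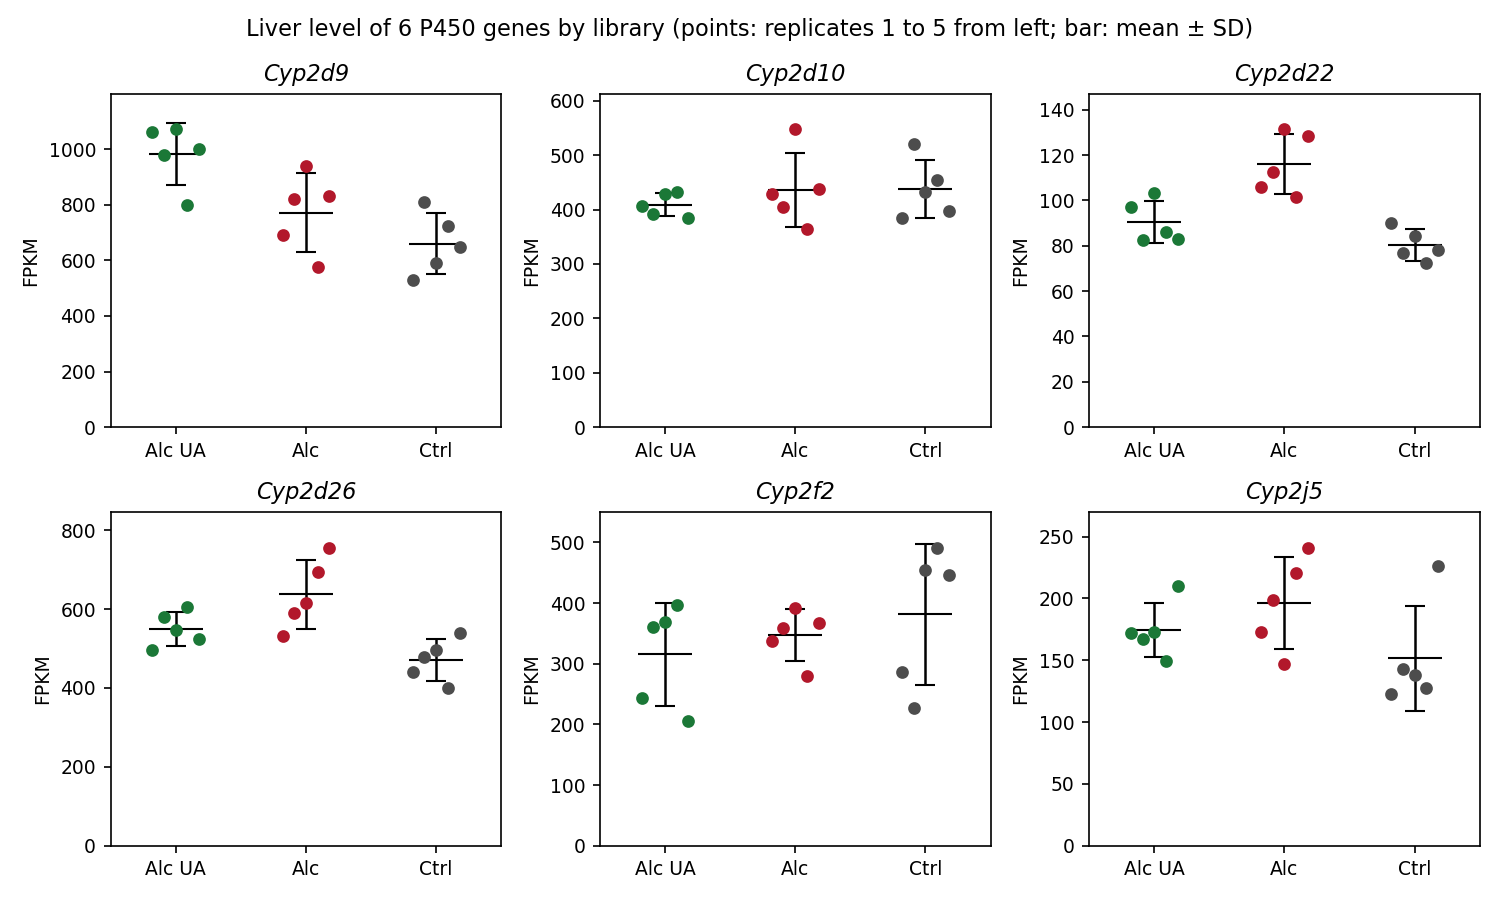
FPKM (y axis, linear, from 0) of the 6 genes in the 15 libraries, grouped on the x axis as Alc UA, Alc and Ctrl, with points for replicates 1 to 5 from left to right and bars for the mean ± SD (n = 5). Cyp2d22 in Alc lies above every Ctrl library, 4 of 5 Alc UA libraries exceed every Alc library for Cyp2d9, and Ctrl 5 stands above the other controls for Cyp2j5.

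The first question was whether adding UA to the alcohol diet was accompanied by a difference from alcohol alone. Of the 6 genes, 0 passed the test in either direction (limma adjusted p from 0.54 to 0.92), where 1 of 10959 genes passed (0.00912%), and that gene was the urinary protein gene Mup5. At an unadjusted p under 0.05 there were 2 of the 6 and 664 of all tested genes (6.06%). The 2 were Cyp2d22, which was lower in 5 of 5 Alc UA livers than the Alc mean, and Cyp2d9, which was higher in 5 of 5. Both failed the correction for all genes tested. Cyp2d10 and Cyp2d26 were also lower in 5 of 5 than the Alc mean, at an unadjusted limma p of 0.48 and 0.090. The median log2 fold change of the 6 genes was -0.17. The 2 groups overlapped for all 6 genes, where 1.18% of tested genes were separated.

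Cyp2d22 was at 97.1, 82.4, 103, 86.2 and 82.98 FPKM in Alc UA livers 1 to 5, against 106, 113, 131, 101.5 and 128 FPKM in Alc livers. The ranges met at 1 point, since Alc UA 3 lay above Alc 4. The means were 90.4 ± 9.28 FPKM in Alc UA and 116 ± 13.3 FPKM in Alc (SD, n = 5 each). The log2 fold change was -0.36 ± 0.10 (-0.30 relative to the median of all genes; limma adjusted p = 0.54), with a 95% interval from -0.57 to -0.15.

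Cyp2d9, the male-biased steroid hydroxylase gene, was at 1063, 977, 1071, 798 and 1001 FPKM in Alc UA livers 1 to 5, against 690.3, 821, 940.3, 575 and 833 FPKM in Alc livers. Alc UA 4 was the low library of its group, and the other Alc UA livers exceeded all 5 Alc livers. The means were 982 ± 110.4 FPKM in Alc UA and 772 ± 141 FPKM in Alc (SD, n = 5 each). The log2 fold change was 0.36 ± 0.15 (0.41 relative to the median; limma adjusted p = 0.82), with a 95% interval from 0.04 to 0.68.

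The remaining members gave smaller differences between Alc UA and Alc. Cyp2d26 was at 496, 579, 546, 605 and 523 FPKM in Alc UA livers 1 to 5, against 533, 591, 616, 694 and 755 FPKM in Alc livers, and the groups overlapped. It averaged 549.7 ± 43.4 FPKM in Alc UA and 638 ± 87.6 FPKM in Alc, with a log2 fold change of -0.21 ± 0.11 (limma adjusted p = 0.82). All 5 Alc UA livers lay below the Alc mean. Cyp2j5 was at 172, 167, 173, 149.6 and 209.9 FPKM in Alc UA livers, inside the range of the Alc livers. It averaged 174.4 ± 22.001 FPKM in Alc UA and 196 ± 37.3 FPKM in Alc, a log2 fold change of -0.16 ± 0.17 (limma adjusted p = 0.90). Cyp2f2 was at 244, 360.3, 369.5, 397 and 205 FPKM in Alc UA livers, with Alc UA 1 and Alc UA 5 below every Alc liver. Its log2 fold change was -0.18 ± 0.22 with an interval from -0.65 to 0.30. Cyp2d10 was at 407, 392, 428, 433 and 385 FPKM in Alc UA livers, a narrower range than in either other group, and its log2 fold change was -0.08 ± 0.11 with an interval from -0.33 to 0.16. These intervals leave room for changes of either sign and do not show that the groups were alike.

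**Figure D2:**
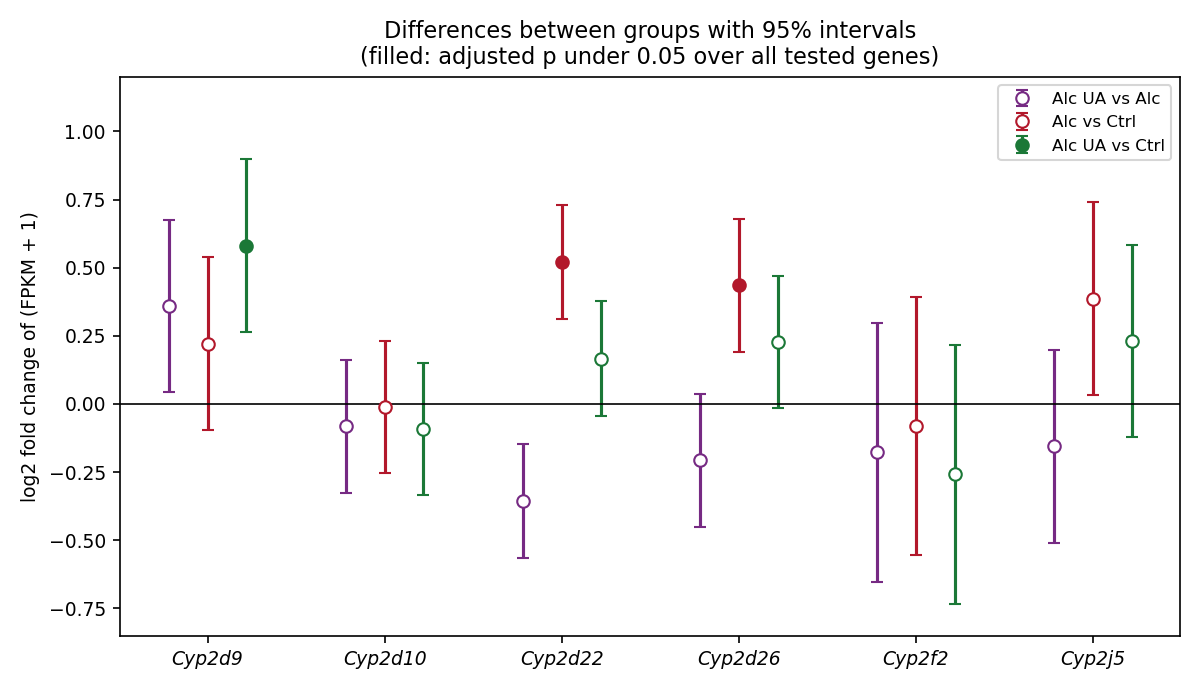
Log2 fold change of FPKM + 1 (y axis) of the 6 genes (x axis) in 3 comparisons, as points with 95% intervals from limma; filled points have an adjusted p under 0.05 over all tested genes. Cyp2d22 and Cyp2d26 are filled for Alc vs Ctrl and Cyp2d9 for Alc UA vs Ctrl.

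The second question was which of these transcripts differed on the alcohol diet alone. Cyp2d22 and Cyp2d26 rose in Alc against Ctrl, 2 of 6 genes, where 33.3% of all tested genes passed in either direction, 10.6% rising and 22.8% falling. The split of all genes depended on scale: 1157 rose and 2497 fell on the deposited scale, 2049 and 2024 after quantile normalization, and 1602 and 1294 with libraries scaled to the same sum. The median log2 fold change of the 6 genes was 0.30 on the deposited scale. No member fell. The estimates of Cyp2d22, Cyp2d26, Cyp2d9 and Cyp2j5 were positive under each of 4 scalings, while those of Cyp2d10 and Cyp2f2 were negative on the deposited scale and positive on the other 3, and passed on none.

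Cyp2d22 was at 106, 113, 131, 101.5 and 128 FPKM in Alc livers 1 to 5, against 90.0, 76.9, 84.2, 72.2 and 78.3 FPKM in Ctrl livers. Every Alc liver lay above every Ctrl liver, and it was the 1 member of 6 with separate groups, where 15.8% of tested genes were separated, 6.18% with Alc higher and 9.61% with Alc lower. It was 1.44-fold higher in Alc, at 116 ± 13.3 FPKM in Alc against 80.3 ± 6.90 FPKM in Ctrl (SD, n = 5 each). The log2 fold change was 0.52 ± 0.10 (0.64 relative to the median; limma adjusted p = 0.0016).

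Cyp2d26 was at 533, 591, 616, 694 and 755 FPKM in Alc livers, against 440.6, 479, 497, 398.5 and 538 FPKM in Ctrl livers. The groups overlapped only where Ctrl 5 exceeded Alc 1. The means were 638 ± 87.6 FPKM in Alc and 471 ± 53.4 FPKM in Ctrl, and the log2 fold change was 0.43 ± 0.11 (0.55 relative to the median; limma adjusted p = 0.010).

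Cyp2j5, the arachidonic acid epoxygenase gene, was at 173, 199, 147, 221 and 241 FPKM in Alc livers, against 123, 143, 138, 128 and 226 FPKM in Ctrl livers. Ctrl 5 held the second-highest value of these 10 libraries, and the other 4 controls lay below all Alc livers. The log2 fold change was 0.39 ± 0.17 (0.51 relative to the median) and did not pass (limma adjusted p = 0.084). Without Ctrl 5 it was 0.54 ± 0.14 and passed (limma adjusted p = 0.0067), and without Alc 3 it was 0.48 ± 0.17 and passed (limma adjusted p = 0.038). With the replicate number as a block it also passed (limma adjusted p = 0.033). Leaving out any other single library, of 15 tried in turn, did not make it pass. Without Alc 5 it was 0.31 ± 0.17 (limma adjusted p = 0.20).

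Cyp2d9 averaged 772 ± 141 FPKM in Alc and 660.1 ± 110.5 FPKM in Ctrl, and its log2 fold change of 0.22 ± 0.15 did not pass (limma adjusted p = 0.26). Cyp2d10 was at 364 to 548 FPKM in Alc livers and at 385 to 520.1 FPKM in Ctrl livers. Its log2 fold change was -0.01 ± 0.11, with an interval from -0.25 to 0.23, and was 0.11 relative to the median. Its interval excludes a change of the size fitted for Cyp2d22 or Cyp2d26 on the deposited scale. Cyp2f2, the periportal naphthalene-oxidising P450 gene, was at 338, 358, 392, 280.3 and 368 FPKM in Alc livers, against 286, 227, 455, 491 and 446 FPKM in Ctrl livers. The Alc values lay inside the range of the controls, which was wide, with Ctrl 1 and Ctrl 2 low and the other 3 high. The log2 fold change was -0.08 ± 0.22 (limma adjusted p = 0.80), or 0.04 relative to the median.

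The third comparison set Alc UA against Ctrl, with the same control libraries. Cyp2d9 rose, as 1 of 6 genes, where 42.6% of all tested genes passed in either direction, 10.5% rising and 32.1% falling. That split was 1152 higher and 3521 lower on the deposited scale, and 2420 and 2430 after quantile normalization. The groups overlapped for all 6 genes, where 20.2% of tested genes were separated, 5.48% with Alc UA higher. It averaged 982 ± 110.4 FPKM in Alc UA and 660.1 ± 110.5 FPKM in Ctrl, 1.49-fold higher, with a log2 fold change of 0.58 ± 0.15 (0.74 relative to the median; limma adjusted p = 0.0064). The Ctrl livers were at 529, 809.9, 589, 723 and 649 FPKM, so that Alc UA 4, at 798 FPKM, lay below Ctrl 2 and the other Alc UA livers lay above all controls. Cyp2d22 gave 0.17 ± 0.10 and Cyp2d26 gave 0.23 ± 0.11, and neither passed (limma adjusted p = 0.19 and 0.12). Both passed after quantile normalization (limma adjusted p = 0.042 and 0.028) and with median-of-ratios size factors (limma adjusted p = 0.013 for each), so that 3 of 6 genes then rose. Cyp2j5 gave 0.23 ± 0.17 (limma adjusted p = 0.28) and passed without Ctrl 5 at 0.38 ± 0.14 (limma adjusted p = 0.031). Without Alc UA 5 it gave 0.16 ± 0.17 (limma adjusted p = 0.49). Cyp2d10 gave -0.09 ± 0.11 and Cyp2f2 gave -0.26 ± 0.22, and neither passed (limma adjusted p = 0.54 and 0.37).

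The mix of CYP2D transcripts within a library does not depend on the scale of that library. The table held 8 CYP2D genes, which summed to 2129 ± 91.1 FPKM in Alc UA, 2069 ± 231 FPKM in Alc and 1734 ± 167 FPKM in Ctrl (SD, n = 5 each). Cyp2d9 made up 46.0 ± 3.55% of that sum in Alc UA, 37.1 ± 3.47% in Alc and 37.9 ± 3.29% in Ctrl. Its share was 39.9% in Alc UA 4 and 46.6% to 49.1% in the other Alc UA livers, and it was 31.5% to 40.2% in Alc. Cyp2d22 made up 3.88% to 4.59% in Alc UA livers and 5.45% to 5.72% in Alc livers, ranges that did not overlap, and 3.88% to 5.92% in Ctrl livers. Cyp2d10 made up 17.96% to 21.7% in Alc UA, 19.3% to 23.4% in Alc and 22.5% to 26.4% in Ctrl. These shares are descriptions with no test, and those of Cyp2d9 and Cyp2d10 carry the uncertainty of shared reads. Shares of the same sum are tied, so a larger share of Cyp2d9 lowers the others. The FPKM values of Cyp2d22 itself overlapped between Alc UA and Alc, and the difference did not pass.

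**Figure D3:**
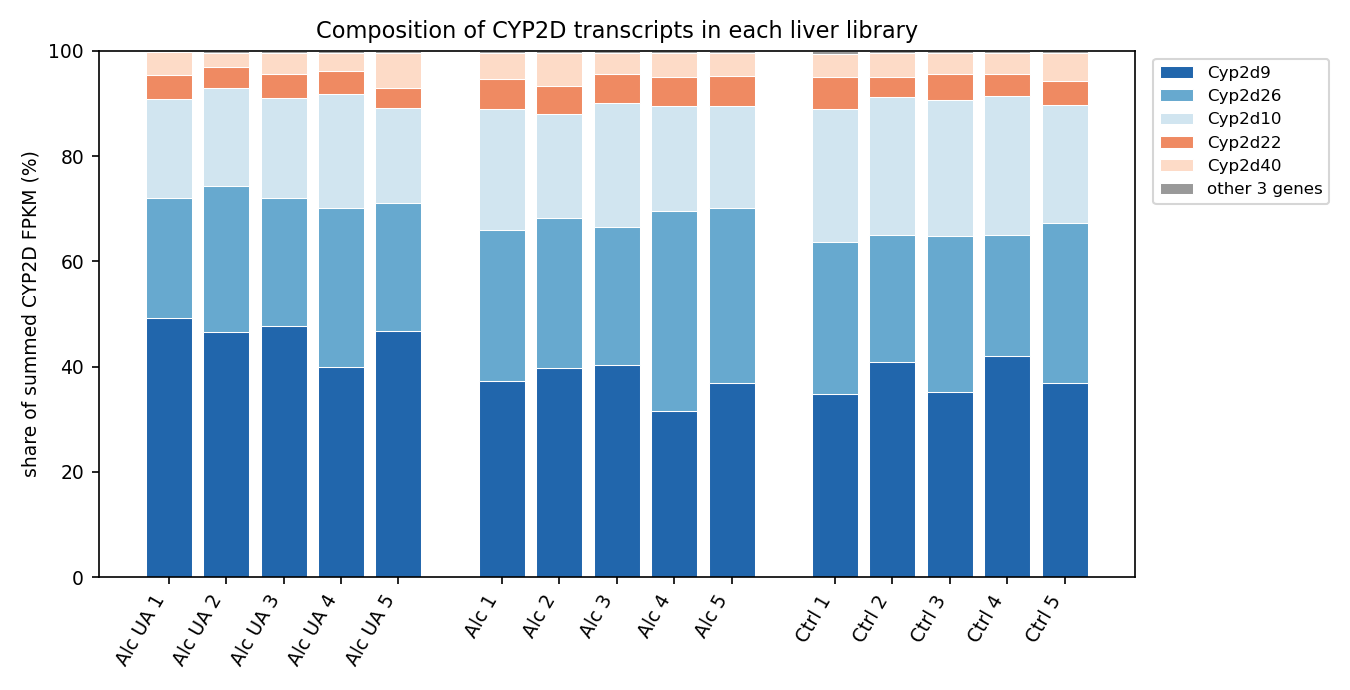
Share of each CYP2D gene in the summed CYP2D FPKM of a library (y axis, percent, from 0 to 100) for the 15 libraries (x axis), with 1 stacked bar per library. The bottom segment, Cyp2d9, is 46.0% on average in Alc UA, 37.1% in Alc and 37.9% in Ctrl, and the Cyp2d22 segment is narrower in every Alc UA library than in any Alc library. The segments have a fixed total, so a wider Cyp2d9 segment narrows the others.

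The ratio of Cyp2d9 to Cyp2d22 was looked at after their values had been seen, because the pair differed in sign between Alc UA and Alc. The ratio of FPKM values was 10.9, 11.9, 10.4, 9.26 and 12.1 in Alc UA livers 1 to 5, against 6.51, 7.29, 7.16, 5.66 and 6.49 in Alc livers. The lowest Alc UA liver lay above the highest Alc liver. The pair was picked for its opposite differences in these same libraries, so that separation adds no support to either difference. Neither gene separated the groups alone. In Ctrl livers the ratio was 5.87, 10.5, 7.001, 10.02 and 8.29, spanning much of both ranges. The ratio of Cyp2d9 to Cyp2d10 was 1.84 to 2.61 in Alc UA, 1.58 to 2.03 in Alc and 1.36 to 1.64 in Ctrl.

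The other members of the subfamilies were mostly weak. Of 5 further CYP2D genes listed, 4 were in the table and 3 were tested, and 0 passed in any comparison (limma adjusted p from 0.065 to 0.999). At an unadjusted p under 0.05 there was 1 in Alc UA against Ctrl and none in the other comparisons. Cyp2d40 was the strongest, at 90.2 ± 31.3 FPKM in Alc UA, 98.6 ± 17.98 FPKM in Alc and 77.4 ± 12.8 FPKM in Ctrl. After quantile normalization 1 of the 3, Cyp2d12, rose in Alc UA against Ctrl; it was at 2.85 ± 0.784 FPKM in Alc UA and 2.06 ± 0.667 FPKM in Ctrl.

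Of 7 further CYP2J genes, 6 were in the table and 2 were tested. Cyp2j9 was at 4.72, 3.46, 9.69, 2.63 and 2.65 FPKM in Alc livers, against 13.45, 25.85, 18.05, 11.8 and 6.71 FPKM in Ctrl livers. The groups overlapped only where Alc 3 exceeded Ctrl 5. It fell by 1.53 on the log2 scale (SE 0.35, limma adjusted p = 0.0045) in Alc against Ctrl, where Cyp2j5 gave 0.39 ± 0.17. It was at 3.11, 2.99, 3.47, 8.86 and 4.77 FPKM in Alc UA livers and fell by 1.49 against Ctrl (SE 0.35, limma adjusted p = 0.0037). Cyp2j6 was at 19.1 ± 4.91 FPKM in Alc UA, 20.4 ± 6.37 FPKM in Alc and 17.7 ± 5.58 FPKM in Ctrl and did not pass. In Ctrl 5 the level of Cyp2j9 was the lowest of the controls and that of Cyp2j5 the highest.

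**Figure D4:**
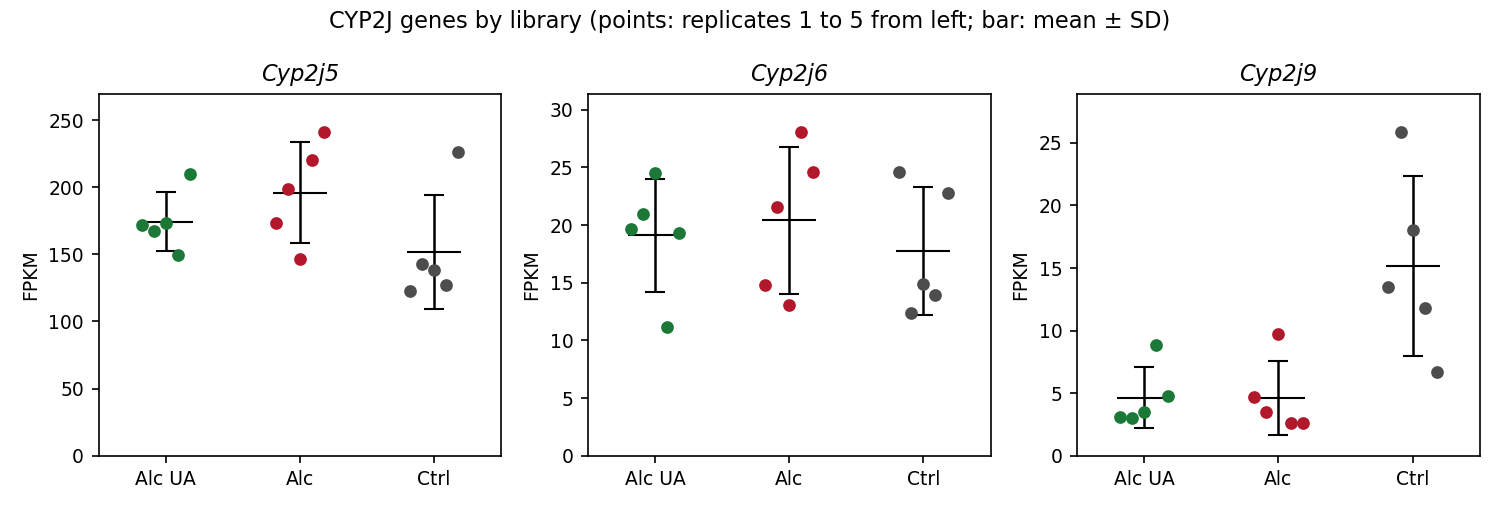
FPKM (y axis, linear, from 0, a scale of its own in each panel) of Cyp2j5, Cyp2j6 and Cyp2j9 in Alc UA, Alc and Ctrl libraries (x axis), with points for replicates 1 to 5 from left and bars for the mean ± SD. Cyp2j9 averages 4.64 in Alc UA, 4.63 in Alc and 15.2 in Ctrl, while Cyp2j5 averages 174, 196 and 152 in the same groups.

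A P450 needs electrons and heme. Of 6 redox partners, 2 rose and 0 fell in Alc against Ctrl, with a median log2 fold change of 0.13 beside -0.12 for all genes. Por, the electron donor of all microsomal P450s, was at 375 ± 58.9 FPKM in Alc UA, 299 ± 35.2 FPKM in Alc and 125 ± 25.7 FPKM in Ctrl. It rose by 1.27 ± 0.15 in Alc against Ctrl (limma adjusted p = 6.2e-05) and by 1.58 ± 0.15 in Alc UA against Ctrl (limma adjusted p = 7.2e-06). Cyb5b, an outer mitochondrial membrane cytochrome, rose by 0.46 ± 0.15 in Alc (limma adjusted p = 0.030). Of 8 heme synthesis genes, 2 rose and 0 fell in Alc against Ctrl: Alas1, the rate-limiting enzyme, by 0.96 ± 0.17, and Fech, which inserts iron, by 0.56 ± 0.10 (limma adjusted p = 8.3e-04 and 0.0012). In Alc UA against Ctrl the redox partners gave 1 higher and 1 lower, and the heme genes 2 higher and 2 lower. The heme counts moved with scale, to 5 higher and 2 lower in Alc UA against Ctrl after quantile normalization or with median-of-ratios size factors, and to 4 higher and 0 lower in Alc against Ctrl on each of the other 3 scalings.

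Cyp2j5 shares its epoxygenase reaction with CYP2C enzymes, and its products are hydrolysed by the soluble epoxide hydrolase encoded by Ephx2. Of 8 tested genes of this pathway, 5 rose and 1 fell in Alc against Ctrl, with a median of 1.13. The 5 that rose were all CYP2C genes, and the sequence they share was not examined here. Cyp2c29 was at 269 ± 53.8 FPKM in Alc against 91.2 ± 31.7 FPKM in Ctrl, and Cyp2c37 was at 295 ± 119 FPKM in Alc against 105 ± 56.0 FPKM in Ctrl (limma adjusted p = 0.0025 and 0.0062). Ephx2 was at 581, 628, 718, 640.1 and 623 FPKM in Alc livers, against 759, 996, 829.5, 1081 and 868 FPKM in Ctrl livers, with no overlap. It fell by 0.50 on the log2 scale (SE 0.11, limma adjusted p = 0.0034), while in Alc UA, at 764 ± 39.4 FPKM, its difference of -0.24 ± 0.11 from Ctrl did not pass (limma adjusted p = 0.087) but passed without Ctrl 1 and Ctrl 5. The difference between Alc UA and Alc was 0.26 ± 0.11 and did not pass (limma adjusted p = 0.82).

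Among 23 tested transcription factors of hepatic P450 genes, 9 rose and 2 fell in Alc against Ctrl (median 0.15), and 8 rose and 5 fell in Alc UA against Ctrl (median 0.05), or 10 and 2 after quantile normalization. Hnf4a, which binds DR1 elements, was at 117 ± 25.5 FPKM in Alc UA, 110.1 ± 19.0 FPKM in Alc and 113 ± 23.3 FPKM in Ctrl and passed in no comparison. Dbp, Tef and Hlf, activators under the circadian clock, rose by 3.98 ± 0.20, 1.76 ± 0.15 and 0.80 ± 0.10 in Alc against Ctrl, and Nfil3, a repressor at the same D-box sites, fell by 1.46 (limma adjusted p = 1.2e-08, 2.1e-06, 6.9e-05 and 3.3e-05). The part of collection hour in any of the results was not tested. Nr0b2, which encodes SHP, a corepressor of HNF4A, was at 7.29, 8.56, 17.2, 9.60 and 14.98 FPKM in Alc UA livers, against 21.5, 25.5, 19.6, 20.7 and 39.0 FPKM in Alc livers. Those ranges did not overlap, in a direction in which 0.894% of tested genes were separated, but the difference of -1.09 ± 0.37 did not pass (limma adjusted p = 0.71). Nr0b2 fell by 1.02 in Alc UA against Ctrl, whose livers were at 10.7 to 47.7 FPKM (limma adjusted p = 0.037), on the deposited scale; it did not pass on any of the other 3 scalings.

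**Figure D5:**
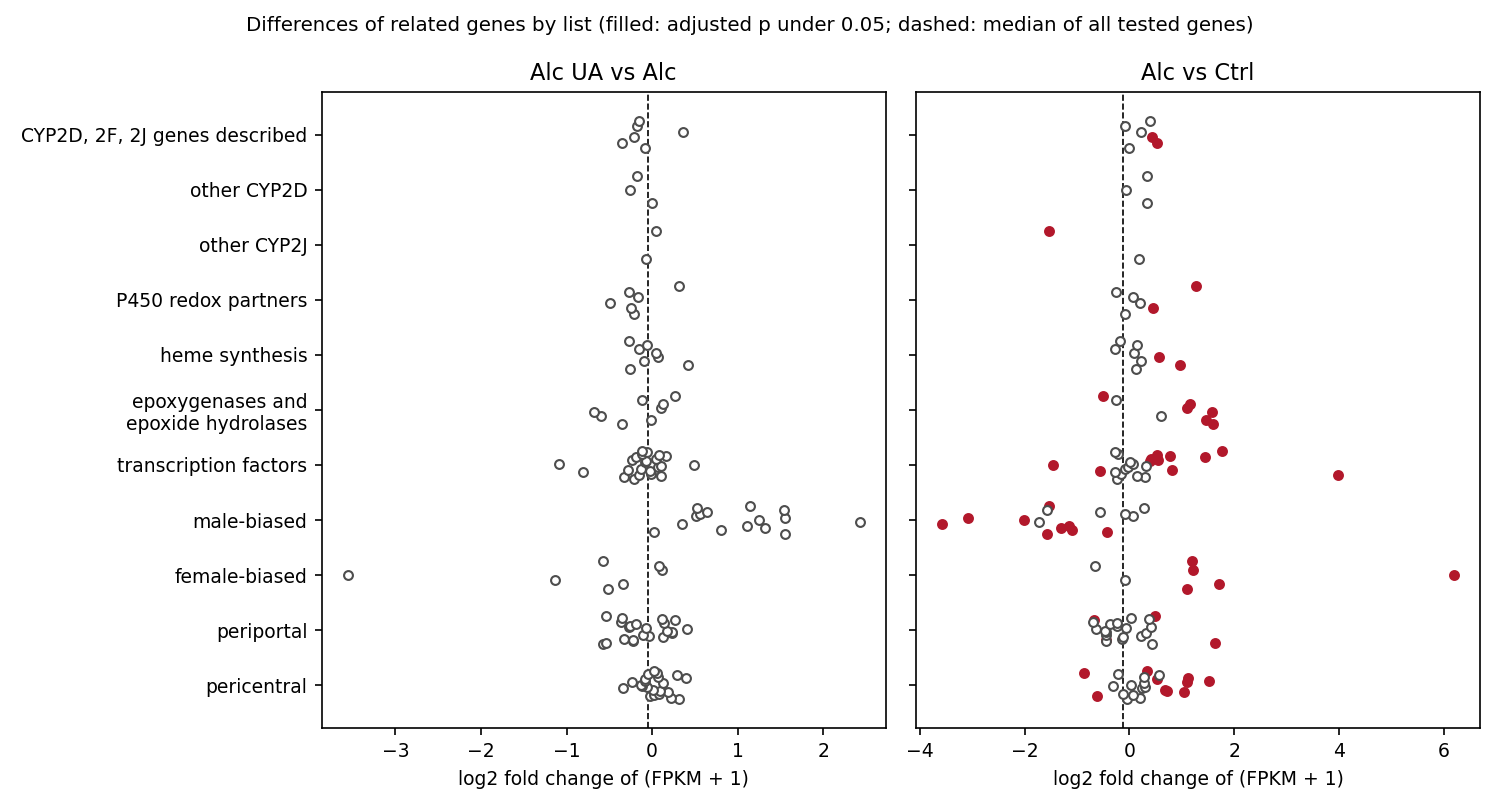
Log2 fold changes of FPKM + 1 (x axis, a separate range in each panel) of the tested genes of 11 lists (rows) for Alc UA vs Alc on the left and Alc vs Ctrl on the right; filled points passed over all tested genes and the dashed line is the median of all tested genes. In Alc UA vs Alc none of these genes passed, and in Alc vs Ctrl the 6 P450 genes described lie between -0.08 and 0.52, while male-biased genes reach -3.58 and female-biased genes 6.20.

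Cyp2d9 is a male-biased gene, and other genes of that kind were set beside it. Of 15 tested male-biased genes, 0 rose and 9 fell in Alc against Ctrl, with a median of -1.30, while Cyp2d9 gave 0.22 ± 0.15. Elovl3, a fatty acid elongase, fell by 3.58, and C6, a complement component, fell by 1.57 (limma adjusted p = 6.7e-08 and 8.0e-04). In Alc UA against Alc 0 of the 15 passed, 9 had an unadjusted p under 0.05, and the median was 1.11, beside 0.36 ± 0.15 for Cyp2d9. The same Alc libraries enter both comparisons. In Alc UA against Ctrl 1 rose and 3 fell, with a median of -0.02 that was positive on the other scalings. Of 21 female-biased genes 7 were tested, and 5 rose and 0 fell in Alc against Ctrl; weak genes could enter through the alcohol groups alone, so this count leans to rises.

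Cyp2f2 is a periportal gene, and the zonation lists showed how far its neighbours moved. Of 22 other periportal genes, 2 rose and 2 fell in Alc against Ctrl, with a median of -0.19 beside -0.12 for all genes. Pck1, of gluconeogenesis, fell by 0.67 and Apoc2 fell by 0.44, while Uroc1, of histidine breakdown, rose by 0.49 and Aldh1b1 rose by 1.63 (limma adjusted p from 0.0045 to 0.020). Apoc2 did not pass with libraries scaled to equal sums. Of 22 tested pericentral genes, 8 rose and 2 fell, with a median of 0.28. Cyp2e1, the pericentral ethanol-oxidising P450 gene, was at 7757, 7317, 7227, 7685 and 8649.8 FPKM in Alc livers, against 3996, 4365, 3422, 2430.3 and 5132 FPKM in Ctrl livers. The ratio of Cyp2f2 to Cyp2e1 was 0.0227 to 0.0506 in Alc UA, 0.0365 to 0.0543 in Alc and 0.0521 to 0.202 in Ctrl. Between Alc and Ctrl the ratio differed mainly through the level of Cyp2e1, since Cyp2f2 gave -0.08 ± 0.22. The part of zonation in the spread of Cyp2f2 among the controls was not tested.

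Within groups the 6 genes varied largely on their own. After subtraction of the group means, Cyp2d9 and Cyp2d10 were the most alike of the 15 pairs, with Pearson r = 0.70 over 15 libraries. That pair shares transcript sequence. The next highest was Cyp2d26 and Cyp2j5 at 0.53, and the lowest was Cyp2d10 and Cyp2j5 at -0.49. Among 9097 other genes with a mean of at least 2 FPKM, Cyp2f2 was most like Ftcd, which acts in histidine and folate metabolism, at r = 0.88, then Agxt at 0.79 and Amacr at 0.77. Cyp2j5 was most like Slc15a5 (0.90), Ces2e (0.89) and Ugt1a5 (0.87). Cyp2d26 was most like Trap1 (0.89), Gfm1 (0.89) and Abcf1 (0.85), and Cyp2d10 most like Dnajc12 (0.88), Hmgn5 (0.85) and Mfsd3 (0.85). Cyp2d22 was most like Suv39h1 (0.88), Izumo4 (0.87) and Klf1 (0.86). Cyp2d9 had the weakest matches, Cpsf4l (0.77), Tnfaip8l1 (0.74) and the urinary protein gene Mup11 (0.71). These are the highest of many values over the same 15 libraries and are given as a description.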

How the data were processed

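Liver RNA from 15 mice was extracted with phenol-chloroform and made into libraries by an MGISEQ protocol, per the labels' protocols. The authors deposited FPKM values to 2 decimals, 1 column per mouse, which was matched to a sample by letter (U, A or C) and replicate number; the file does not define the letters, which were read as the initials of UA, Alc and Ctrl, and every comparison rests on that reading. The submitters' processing notes list, with no role or order, RSEM 1.2.8, StringTie, Bowtie2 2.2.5, DESeq and HISAT2 2.1.0; build, annotation and strand handling were not given in the sources used here, and no genome-wide counts were used. FPKM are not counts, so log2(FPKM + 1) was fitted over all 3 groups by limma 3.58.1 (R 4.3.3), with a trend of the variance on the mean and 12 residual degrees of freedom, keeping genes that reached 1 FPKM in 5 or more libraries. The fit was tried on simulated data with independent normal noise and 50 changed genes per effect size. It recovered 2% to 6% of log2 changes of 0.25 across the 3 comparisons, and 40% to 52% of those of 0.5. The real data held far more called genes in the comparisons with Ctrl, so these shares may not carry over. Members and lists were chosen with earlier results of these data known. Up to 4 genes with the smallest p were named per list, besides fixed ones (Por, Hnf4a, Cyp2e1, Nr0b2 and Ephx2; 1 more is not reported here), and 3 most similar genes per member; Cyp2d40 and the other CYP2J genes tested belong to lists of that kind. Promoters were searched and aligned with Biopython 1.88 in Python 3.11.15, and figures drawn with matplotlib 3.10.9.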

Additional observations from a re-analysis of the deposited data

Results flagged for a closer look

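Of 18 sets of 5 libraries examined (6 genes in 3 groups), 1 held a library far from the others. Cyp2j5 in Ctrl 5 was at 226 FPKM, with the other controls at 123 to 143 FPKM, and the gap to its nearest neighbour was 0.748 of the range of the group on the log2 scale, above the critical value of 0.71. Chance gives such a gap in about 1 of 20 sets. Cyp2j9 was lowest among the controls in the same library, at 6.71 FPKM.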

How the results depend on the processing

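Across 27 alternative settings, 459 of 486 fitted values of the 6 genes kept their sign and their side of the threshold. The calls of Cyp2d22 and Cyp2d26 in Alc against Ctrl and of Cyp2d9 in Alc UA against Ctrl held in every setting, with log2 fold changes of 0.47 to 0.66, 0.37 to 0.58 and 0.38 to 0.77. Quantile normalization, median-of-ratios size factors and equal sums gave Cyp2d10 in Alc against Ctrl as 0.15, 0.12 and 0.13, and Cyp2f2 as 0.057, 0.051 and 0.059, with signs opposite to the deposited scale; the first 2 of these gave Cyp2d10 in Alc UA against Ctrl as 0.10 and 0.10, Cyp2d22 as 0.28 and 0.36, Cyp2d26 as 0.40 and 0.42, and 3 members called in that comparison. With library weights Cyp2f2 was 0.31 in Alc against Ctrl and 0.089 in Alc UA against Ctrl, and 5870 genes were called in Alc against Ctrl. Cyp2j5 in Alc against Ctrl passed with equal sums (0.52), with weights (0.48), without Ctrl 1 and Ctrl 5 (0.50) and with the replicate block (0.39, adjusted p = 0.033), which changed no other call of the 6 genes. For Alc UA against Alc the count of called genes was 0 with the replicate block, 0 with the 2 groups alone, 2 with equal sums, 2 with a mean of at least 5 FPKM, 2 without Ctrl 1 and Ctrl 5 and 3 with weights.

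When each library was left out in turn, that count ran from 1 to 5 (5 without Alc UA 4, 4 without Ctrl 1, and 2 without Alc UA 1, without Alc 1 or without Ctrl 3), and the counts of genes called ran from 2571 to 4515 in Alc against Ctrl and from 3835 to 5374 in Alc UA against Ctrl. The members called were 0 in Alc UA against Alc, 2 to 3 in Alc against Ctrl and 1 to 2 in Alc UA against Ctrl. Cyp2d10 ran from -0.14 to 0.0025 in Alc UA against Alc, positive without Alc 3, and from -0.095 to 0.054 in Alc against Ctrl, positive without Alc 2 (0.014), Alc 4 (0.052), Ctrl 2 (0.054) or Ctrl 4 (0.0058). Cyp2f2 ran from -0.25 to 0.026 in Alc against Ctrl, positive without Ctrl 4, and Cyp2j5 from 0.31 to 0.54 in Alc against Ctrl and from 0.16 to 0.38 in Alc UA against Ctrl. Except where a setting has fewer libraries or genes by construction, the cause was not tested. Correlations between same-numbered libraries of 2 groups ran from -0.30 to 0.29 and were over 0.1 in 5 of 15 pairs. Of the 15 libraries, 3 correlated best with their own number. These values do not show that the replicate numbers pair mice. Depth is unknown, so counting error could not be separated from differences between mice.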
